A study of Mus musculus with 12 samples.

Results

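Nonproductive beta joins are T cell receptor beta (TRB) rearrangements whose CDR3, the loop read across the V(D)J junction, is out of frame or holds a stop codon. They were taken from the beta chain clonotype tables of 12 thymocyte libraries as every entry with a covered CDR3 whose translation carried a frame shift or stop mark. A clonotype was a distinct combination of V segment, J segment and CDR3 nucleotide sequence. Over the 12 libraries, 15226 of 556273 clonotypes were nonproductive when counted per library, which made 15194 of 511936 distinct ones. Of the 15226, 903 were stop joins, which were in frame with a stop codon inside the CDR3, and 14323 were frame shift joins. The remaining 541047 clonotypes are called productive, a word that refers here to the CDR3 alone.

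The libraries came from sorted CD4 single-positive (CD4SP, 1000000 cells each) and CD8 single-positive (CD8SP, 330000 cells each) thymus cells of Chrna9 knockout mice (Chrna9-/-, KO) and wild-type mice (WT), with no treatment listed. Chrna9 encodes the alpha9 subunit of a nicotinic acetylcholine receptor. There were 3 libraries in each of the 4 groups, KO CD4SP, WT CD4SP, KO CD8SP and WT CD8SP, from 2 male pairs and 1 female pair of mice. Strain and age are not given in the sources used here, and neither a count of receptor sequences nor a stain other than CD4 and CD8 can check the knockout or the purity of the sort. A CD4SP and a CD8SP library with the same genotype and number were taken to be from the same mouse, so there were 6 mice. The beta chain tables held 76193 to 136885 reads per library, of which 75577 to 136060 had a covered CDR3.

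A developing thymocyte joins a D to a J segment and then a V segment to that DJ, on either copy of the beta locus, while bases are trimmed from the ends and others added at random. A joint that loses the reading frame cannot make a receptor chain, but the cell may survive on a productive join of the other copy and still transcribe both. Transcripts with an early stop codon are degraded by nonsense-mediated decay, so RNA can hold fewer of them than DNA. Because their protein is never displayed, such joins are often used as a record of recombination before selection.

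The sequences that the results turn on are given here 5′ to 3′ as they stand in the deposited tables. In the V region stretches, the capitals mark a stop codon that lies upstream of the CDR3, or, in the TRBV4 end, at CDR3 codon 5 counted from the conserved cysteine.
TRBV24, end of framework region 3: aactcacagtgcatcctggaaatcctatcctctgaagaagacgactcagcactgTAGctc
TRBV22, from within framework region 3: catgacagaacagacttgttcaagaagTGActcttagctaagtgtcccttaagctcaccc
TRBV4, uncut V end in the CDR3: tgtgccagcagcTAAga
The next CDR3 sequences show what frame shift joins look like, first those found in 2 libraries with the most reads and then those with the most reads in 1 library. Capitals mark the bases between the V end and the J start.
TRBV12-1 to TRBJ2-1: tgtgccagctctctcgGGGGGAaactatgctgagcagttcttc
TRBV30 to TRBJ1-2: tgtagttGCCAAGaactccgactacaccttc
TRBV5 to TRBJ2-5: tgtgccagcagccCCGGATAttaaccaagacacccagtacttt
TRBV24 to TRBJ2-5: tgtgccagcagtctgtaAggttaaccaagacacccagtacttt
TRBV24 to TRBJ2-4: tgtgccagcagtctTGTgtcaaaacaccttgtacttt
TRBV30 to TRBJ2-1: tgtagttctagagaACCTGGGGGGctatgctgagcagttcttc
The stop joins with the most reads all kept the TAA of the TRBV4 end, which the capitals mark.
TRBV4 to TRBJ2-7: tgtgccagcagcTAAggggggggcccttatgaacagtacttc
TRBV4 to TRBJ2-4: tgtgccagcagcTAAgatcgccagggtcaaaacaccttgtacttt
TRBV4 to TRBJ2-5: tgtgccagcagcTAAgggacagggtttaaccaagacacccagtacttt
TRBV4 to TRBJ2-7, shorter: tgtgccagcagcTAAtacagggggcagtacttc
The TRBV12-1 join, which lies within 1 base of a productive clonotype in KO CD8SP 3, had 3 reads in KO CD8SP 3 and 3 in WT CD4SP 2, and the TRBV24 to TRBJ2-5 join 2 in KO CD4SP 1 and 3 in WT CD4SP 2. The TRBV24 to TRBJ2-4 join had 8 reads in KO CD8SP 2, the TRBV30 to TRBJ2-1 join 7 in WT CD8SP 2, and the 4 stop joins 6, 5, 5 and 5 reads in 1 library each.

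Nonproductive joins were a small share of every library. They numbered 1644, 1477 and 1324 in KO CD4SP libraries, 1424, 1464 and 1204 in WT CD4SP libraries, 1222, 1137 and 1144 in KO CD8SP libraries, and 866, 1127 and 1193 in WT CD8SP libraries. As a share of clonotypes this was 2.98% ± 0.153 in CD4SP and 2.47% ± 0.102 in CD8SP (SD, n = 6 mice), and the CD4SP value was the higher in 6 of 6 mice. As a share of reads it was 2.16% ± 0.139 in CD4SP and 1.42% ± 0.0555 in CD8SP, again higher in 6 of 6 mice. Each of these differences had an exact two-sided sign-flip p of 0.031, the smallest that 6 mice allow, and an adjusted p of 0.125 over 12 measures, so neither passed the threshold of 0.05. Clonotypes rest on few reads: a nonproductive clonotype had 1.44 ± 0.025 reads on average and a productive one 2.28 ± 0.0527 (SD, n = 6 mice), lower in 6 of 6 mice (exact p = 0.031, adjusted over 8 measures 0.0357). Stop joins had 1.25 reads per clonotype on average against 1.45 for frame shift joins, lower in 6 of 6 mice (exact p = 0.031). By the share of clonotypes with 1 read, this was not a trait of every stop join. That share was 61.1% in the 211 stop joins of TRBV4 and 88.2% in the 692 of other V segments. In frame shift joins it was 67.7% ± 4.79 (SD, n = 12 libraries). Whether the mean was lower within TRBV4 was not tested. The stop share of nonproductive clonotypes lay between 4.68% (95% exact binomial interval 3.71% to 5.82%, KO CD4SP 1) and 7.06% (5.68% to 8.66%, WT CD4SP 3), intervals that cover counting error only.

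**Figure D1:**
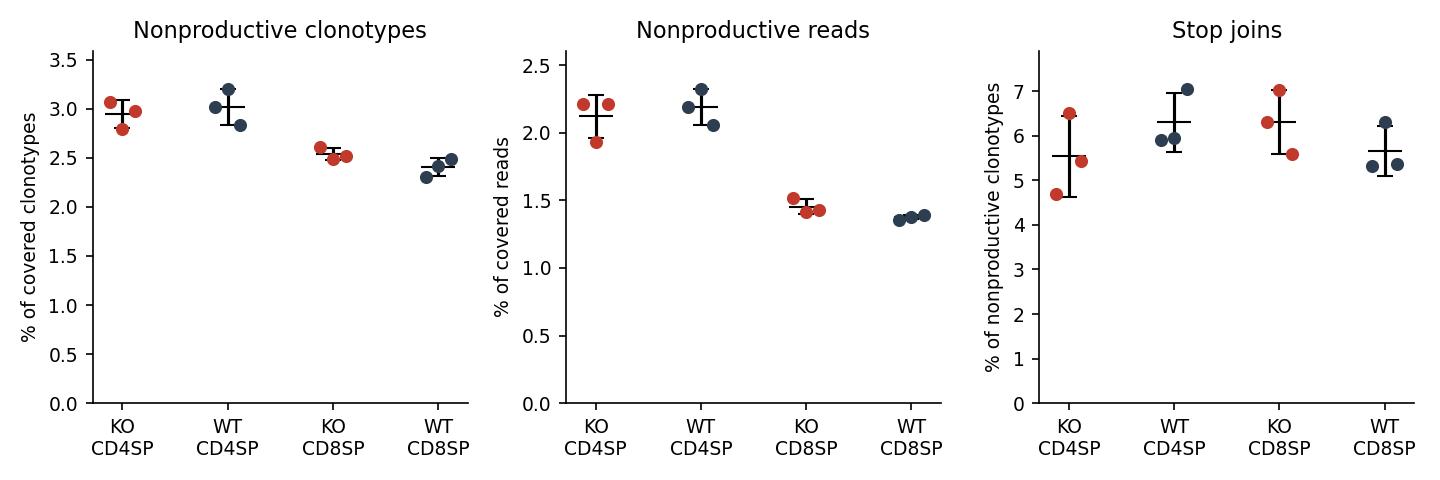
Nonproductive clonotypes and reads as a percentage of those with a covered CDR3, and stop joins as a percentage of nonproductive clonotypes, for each library (points), with the mean and SD of 3 libraries per group. In the left and middle panels all 6 CD4SP points lie above all 6 CD8SP points, while KO and WT points overlap in CD4SP, and in the right panel the 4 groups overlap.

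Part of the nonproductive clonotypes differed from a productive clonotype by very little. A near copy was a nonproductive clonotype within 1 base of a productive clonotype of the same library, V and J that had at least as many reads. Near copies made up 9.46% ± 0.755 of the nonproductive clonotypes in CD4SP and 11.2% ± 1.52 in CD8SP (SD, n = 6 libraries each). Among stop joins they were 229 of 903 (25.4%), all by a substitution. Among frame shift joins, 856 of 14323 were 1 base shorter than the productive clonotype and 478 were 1 base longer. Whether these are sequencing or amplification errors of the productive clonotype was not tested, and results that move without them are given both ways. By its definition, a near copy is more easily found where a segment has more productive clonotypes. Leaving near copies out can therefore take more from the cell type in which the productive clonotypes of a segment are more common.

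The nonproductive share differed widely between V segments. Over the 12 libraries it was 86.6% for TRBV24 (1837 of 2121 clonotypes) and 76.4% for TRBV22 (97 of 127), the highest of the V segments. TRBV4 (13.3%), TRBV30 (13.1%), TRBV2 (8.45%) and TRBV19 (6.73%) came next, apart from TRBV21, whose 11.6% rests on 95 clonotypes. The lowest shares were those of TRBV3 (0.851%), TRBV13-2 (0.965%), TRBV29 (1.00%) and TRBV12-2 (1.01%). TRBJ segments lay much closer together, between 1.79% for TRBJ1-1 and 3.2% for TRBJ1-6.

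**Figure D2:**
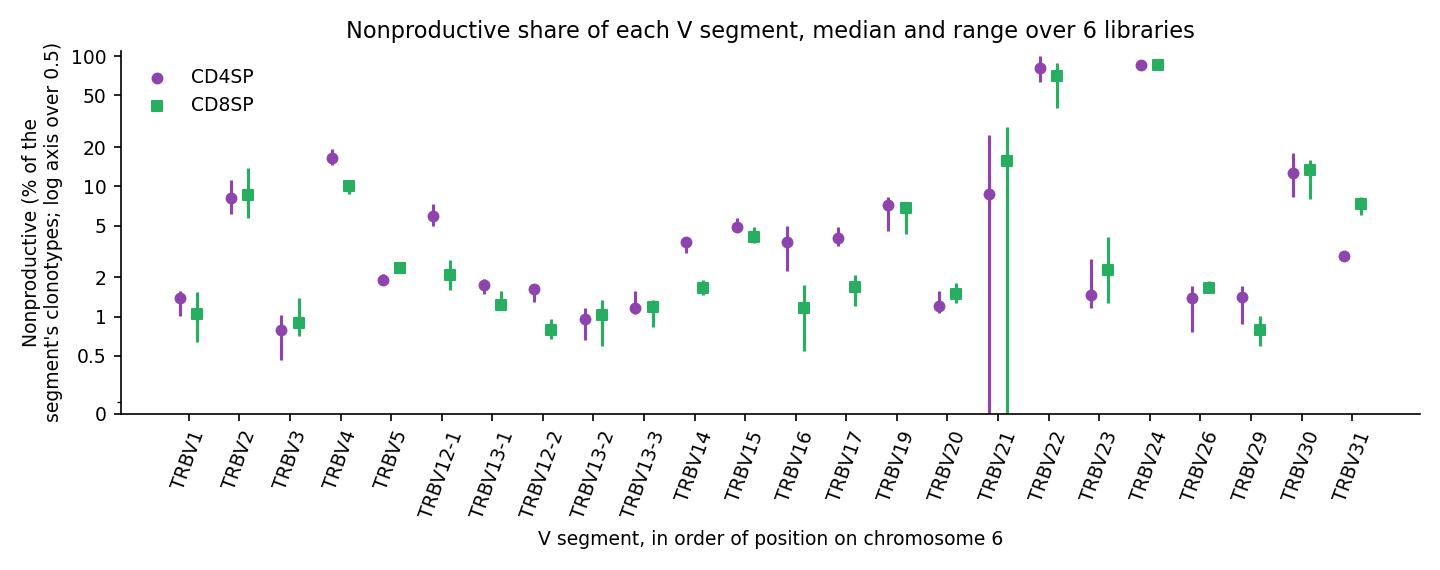
Nonproductive clonotypes as a percentage of all clonotypes of each V segment, in order of position on chromosome 6, as the median (CD4SP circles, CD8SP squares) and the range over 6 libraries each, on an axis that is logarithmic above 0.5%. TRBV22 and TRBV24 stand far above the rest in both cell types, and TRBV31 is higher in CD8SP (5.98% to 8.28%) than in CD4SP (2.83% to 3.14%) while TRBV12-1 is lower in CD8SP (1.60% to 2.73%) than in CD4SP (4.97% to 7.33%).

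Set against the productive clonotypes of the same libraries, most segments held a different share of the nonproductive ones. In CD4SP, 29 of the 36 V and J segments tested passed the threshold, 14 higher (38.9%) and 15 lower (41.7%) in nonproductive joins, 80.6% of the segments tested. In CD8SP, 28 of 36 passed, 13 higher (36.1%) and 15 lower (41.7%), 77.8% of those tested. TRBV24 (11.5% ± 0.913 of nonproductive against 0.0589% ± 0.0113 of productive clonotypes in CD4SP, SD, n = 6), TRBV22, TRBV4, TRBV30, TRBV2, TRBV19 and TRBV15 were higher in both cell types. TRBV4 held 8.05% ± 0.784 of nonproductive and 1.23% ± 0.0861 of productive clonotypes in CD4SP (log2 ratio 2.71, SE 0.080), and 6.4% ± 0.633 and 1.46% ± 0.106 in CD8SP (2.13, SE 0.095). Its lowest nonproductive value over all libraries, 5.11%, lay above its highest productive value, 1.55%. TRBV30 held 1.55% ± 0.34 of nonproductive and 0.323% ± 0.022 of productive clonotypes in CD4SP (log2 ratio 2.27, SE 0.176). TRBV19 held 3.26% ± 0.62 and 1.37% ± 0.0833 of them (log2 ratio 1.27, SE 0.109), and TRBV15 7.39% ± 0.752 and 4.32% ± 0.184 (0.78, SE 0.065). The segments that were lower in both cell types include all 3 members of the TRBV13 family. In CD4SP they were TRBV13-1 at 6.24% ± 0.634 of nonproductive and 10.8% ± 0.235 of productive clonotypes, TRBV13-2 at 1.33% ± 0.318 and 4.31% ± 0.147, and TRBV13-3 at 4.07% ± 0.588 and 10.1% ± 0.167. Among segments with at least 0.5% of a class, the lowest log2 ratio was −1.97 (SE 0.139) for TRBV3 in CD4SP and −1.67 (SE 0.13) for TRBV12-2 in CD8SP.

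Among J segments, TRBJ1-1, the J nearest to TRBD1, was lower in nonproductive joins in both cell types. It held 6.19% ± 0.507 of nonproductive and 8.83% ± 0.236 of productive clonotypes in CD4SP (log2 ratio −0.51, edgeR adjusted p = 3.52e-16), and 6.28% ± 0.417 and 10.4% ± 0.204 in CD8SP (−0.73, edgeR adjusted p = 7.35e-23). TRBJ2-5 was higher in both, with log2 ratios of 0.11 in CD4SP and 0.21 in CD8SP. The whole TRBJ2 cluster held 76.8% ± 1.59 of nonproductive and 72.1% ± 0.581 of productive clonotypes, higher in 6 of 6 mice (SD, exact sign-flip p = 0.031, adjusted 0.0357). This difference of 4.75 points was 2.21 among clonotypes with at least 2 reads (higher in 5 of 6 mice, exact sign-flip test, adjusted p = 0.0833) and 2.83 with reads in place of clonotypes. Of the joins with a D segment that could be told apart, TRBD2 made up 8.69% of nonproductive and 9.14% of productive clonotypes joined to a TRBJ1 segment, and 60.8% and 58.9% of those joined to a TRBJ2 segment. How often a D segment was assigned wrongly was not tested, so these are shares of assignments. The small J ratios depend on scaling. TMM factors were computed over V and J segments together, so V segments bear on the J ratios scaled with them. With these factors the median of all 36 segments in CD4SP moved up by 0.14. TRBJ1-2 (−0.05) and TRBJ1-4 (−0.03) then no longer passed, while TRBJ1-6 (0.27), TRBJ2-3 (0.11) and TRBJ2-4 (0.21) did.

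TRBV24 (chromosome 6, 41218091 to 41218557, GRCm38, annotated by RefSeq as a V segment) gave 1837 of the 15226 nonproductive clonotypes (12.1%). Its share of nonproductive clonotypes was 11.9%, 12.9% and 10.8% in KO CD4SP libraries, 11.7%, 11.4% and 10.3% in WT CD4SP libraries, 13.5%, 11.5% and 12.8% in KO CD8SP libraries and 12.8%, 12.6% and 12.9% in WT CD8SP libraries. KO and WT overlap in each cell type, and the CD4SP against CD8SP difference did not pass (log2 −0.14, SE 0.068, edgeR adjusted p = 0.104). Its framework region 3, shown above, read TAG at its residue 36 in 2101 of 2121 clonotypes (99.1%), a stop codon in the segment's own frame. TRBV22 (41212075 to 41212534), annotated as a pseudogene, read TGA at residue 10 of framework region 3 in 126 of its 127 clonotypes. The 284 TRBV24 and 30 TRBV22 clonotypes counted as productive by their CDR3 therefore are productive in that narrow sense only, since 2117 of 2121 and 127 of 127 clonotypes of these segments held a stop codon in the sequenced V region. Over all V segments a stop codon in the sequenced V region was found in 13.8% of nonproductive and 0.540% of productive clonotypes. Without TRBV22 and TRBV24 it was found in 1.32% of nonproductive clonotypes, against 0.483% of productive ones.

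The frame shift joins of TRBV24 were not spread evenly over the 2 shifted frames. Of its 1814 frame shift joins, 1581 had a CDR3 length of 3n+1 bases (87.2%) and 233 of 3n+2, and the 3n+1 share lay between 81.1% and 91.7% in the 12 libraries. The other segments with at least 100 frame shift joins that exceeded 60% were TRBV30 (80.0%, over 50% in 11 of 12 libraries with a lowest value of 45.5%), TRBV2 (73.9%, over 50% in 12 of 12 libraries) and TRBV13-1 (65.7%, 12 of 12). The other 17 of 21 such segments lay between 39% and 60%, and the median of the 21 was 49.4%. Summed over all V segments 8077 of 14323 frame shift joins were 3n+1 (56.4%), and 51.9% without TRBV24. Translated in the frame that J has in a 3n+1 join, the nearest V region stop codon lay 137 bases before the CDR3 in TRBV24, 101 in TRBV13-1, 38 in TRBV30 and 29 in TRBV2. It lay as far away in segments with a lower 3n+1 share, at 137 bases in TRBV13-3 (55.1%) and 110 in TRBV5 (50.1%), and as near in TRBV4, at 29 bases (50.8%). No test was made of these frame counts, and whether V region stop codons bear on them was not tested.

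**Figure D3:**
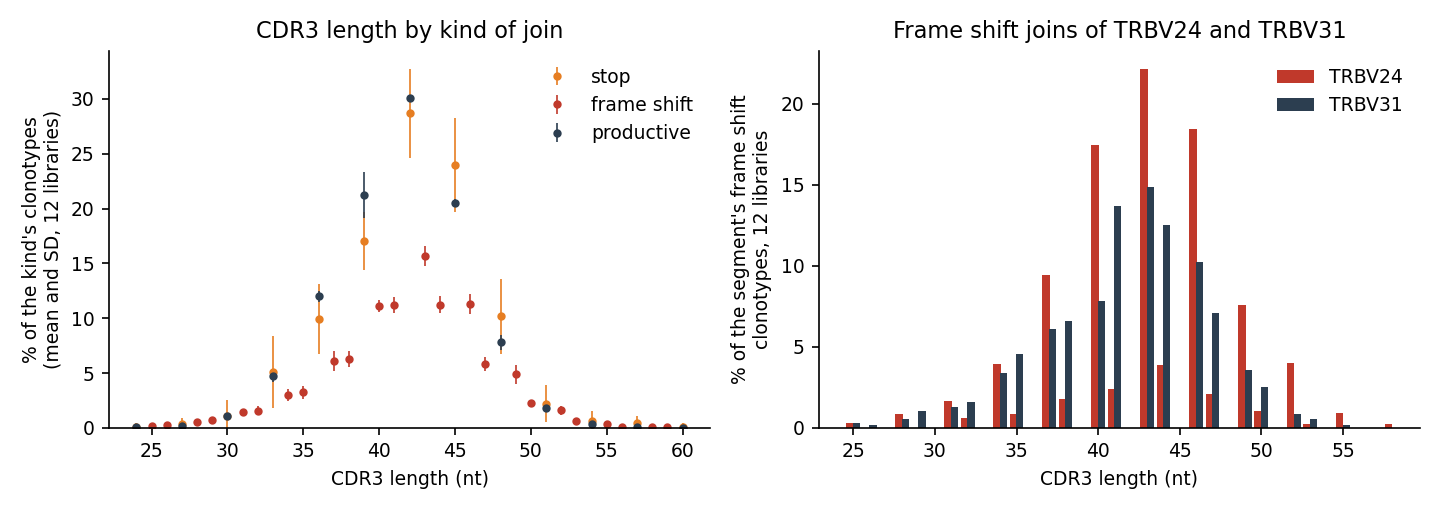
CDR3 length in bases of stop, frame shift and productive clonotypes (left, mean and SD over 12 libraries of the percentage of the kind), and of the frame shift clonotypes of TRBV24 and TRBV31 (right, percentage of the segment's frame shift clonotypes summed over 12 libraries). Stop and productive lengths fall only on multiples of 3 by definition and frame shift lengths between them. TRBV24 alternates between tall 3n+1 and short 3n+2 bars (87.2% of 3n+1), while TRBV31 does not (49.4%).

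TRBV4 (41059443 to 41059886) carried the most stop joins of any V segment. Its commonest uncut V end, shown above, reads TAA at CDR3 residue 5. This end was found in 237 of the 421 TRBV4 clonotypes counted as uncut (56.3%). Of 8365 TRBV4 clonotypes, 211 were stop, 901 frame shift and 7253 productive. TRBV4 held 22.8% ± 5.17 of stop and 6.23% ± 0.893 of frame shift clonotypes (SD, n = 12 libraries), higher in 12 of 12 libraries (log2 1.88, SE 0.127, edgeR adjusted p = 8.47e-42). The rule that defines a stop join makes an in-frame join that keeps this TAA a stop join, so its absence from productive TRBV4 clonotypes (0 of 7253) follows from the rule. The TAA was kept in 182 of the 211 stop joins and in 351 of the 901 frame shift joins. Stop joins had lost 1.09 V bases on average, frame shift joins 3.16 and productive joins 4.45, and 39.8%, 19.9% and 2.18% of them had an uncut V end. The same rule bears on the stop and productive values, since an in-frame join that keeps the commonest V end is a stop join. The 158 productive joins counted as uncut lacked the TAA all the same. Why their V ends differ from the commonest one was not tested. Only 2 of the 211 TRBV4 stop joins (0.948%) were near copies, against 227 of 692 (32.8%) of the stop joins of other V segments.

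Stop codons were TAA in 337, TAG in 330 and TGA in 236 of the 903 stop joins. They lay within the V end in 348, within J in 238, between V and J in 182, across the V end in 79 and across the J start in 55 joins, and 1 spanned V and J. CDR3 residue 5 held 288 of them, of which TRBV4 gave 203, and residue 6 held 101. Residue 1, the conserved cysteine codon, read TGA in 91 joins, of which 43 were near copies and 98.9% had 1 read. In all, 10 of 28 segments tested differed between stop and frame shift joins (35.7%), 3 higher (10.7%) and 7 lower (25.0%). Besides TRBV4, TRBV29 (log2 1.23, SE 0.242) and TRBJ2-1 (0.51, SE 0.126) were higher in stop joins. TRBV24 was lower, with 2.47% ± 1.65 of stop and 12.7% ± 1.02 of frame shift clonotypes (log2 −2.30, SE 0.226, edgeR adjusted p = 2.36e-23), as were TRBV19 (−1.91), TRBJ1-6 (−1.20), TRBV2 (−1.09), TRBV12-1 (−0.98), TRBJ2-3 (−0.43) and TRBV31 (−0.35). Without near copies 6 of 27 segments passed, with TRBV4 higher and TRBV12-1, TRBV19, TRBV24, TRBV31 and TRBV5 lower.

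**Figure D4:**
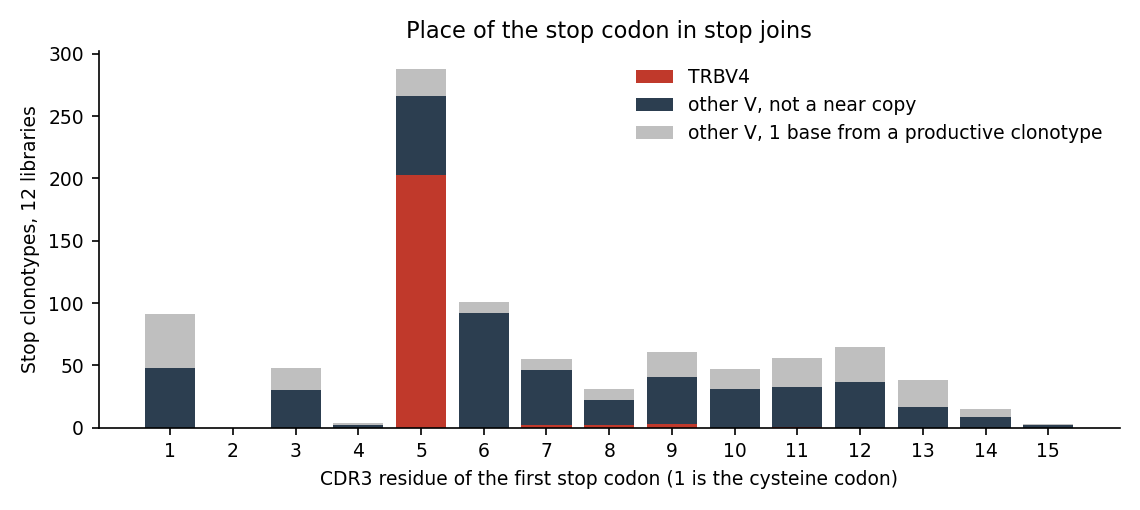
Number of stop clonotypes, summed over 12 libraries, by the CDR3 residue at which the first stop codon stands, with TRBV4, other V segments that are not near copies, and other V segments that are 1 base from a productive clonotype stacked. Residue 5 holds 288 stops, 203 of them in TRBV4, while near copies make up 43 of the 91 stops at residue 1 and 21 of the 38 at residue 13.

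Nonproductive CDR3s were longer and more spread out than productive ones. Their mean length was 41.9 ± 0.146 bases, against 41.3 ± 0.043 bases in productive clonotypes, and the SD of lengths within a library was 5.16 ± 0.104 against 4.34 ± 0.0113 bases (SD over 6 mice). At the extremes, 2.17% of nonproductive and 1.36% of productive clonotypes were 30 bases or shorter. Inserted bases were counted on either side of an assigned D segment, or as all bases between V and J where none was assigned. By this count, which depends on D assignment, nonproductive joins had 3.49 ± 0.0397 inserted bases and productive ones 3.14 ± 0.0107. In all, 11.6% and 13.7% had none. A D segment was assigned in 74.9% ± 0.879 of nonproductive and 72.4% ± 0.32 of productive clonotypes. Mean length, its SD, inserted bases and the D share were each higher in 6 of 6 mice, with an exact sign-flip p of 0.031 and an adjusted p of 0.0357 over 8 measures. Among clonotypes with at least 2 reads, length (41.9 and 41.3 bases) and inserted bases (3.52 and 3.10) were still higher in 6 of 6 mice, but the adjusted p was 0.0625 and none of the 8 measures passed. The D share was then 73.1% and 72.4%, a difference of 0.768 points in place of 2.48, higher in 4 of 6 mice (exact p = 0.156). Bases lost from V were 2.44 ± 0.0413 in nonproductive and 2.37 ± 0.00968 in productive joins (adjusted 0.0357, exact sign-flip test), a difference of 0.0725 that shrank to 0.00218 without TRBV22 and TRBV24. The difference had opposite signs in the cell types, 0.172 in CD4SP and −0.0268 in CD8SP, and was the higher in CD4SP in 6 of 6 mice (exact sign-flip p = 0.031, adjusted 0.0833). Stop and frame shift joins had like lengths, the difference in means being −0.082 bases (exact sign-flip p = 0.719).

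The CD4SP against CD8SP difference in V use was smaller in nonproductive than in productive joins. Over the V segments tested, the log2 ratios of CD4SP over CD8SP had an SD of 0.42 in nonproductive and 0.90 in productive joins. Of 33 segments tested in nonproductive joins, 8 passed (24.2%), 5 higher in CD4SP (15.2%) and 3 lower (9.09%), against 32 of 34 in productive joins (94.1%), 17 higher (50.0%) and 15 lower (44.1%). Without either library of WT mouse 2, 5 segments passed in place of 8. The counts differ in the number of clonotypes behind them, so the difference itself was tested: the nonproductive over productive ratio differed between CD4SP and CD8SP for 15 of 36 segments (41.7%), 9 higher in CD4SP (25.0%) and 6 lower (16.7%).

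TRBV31 (41557693 to 41558371), which lies downstream of the constant regions and is joined by inversion, showed the largest such difference. It made up 17.8% ± 0.987 of nonproductive clonotypes in CD4SP and 15.5% ± 1.34 in CD8SP, and 17.9% ± 0.437 and 5.01% ± 0.16 of productive ones (SD, n = 6). Its nonproductive share was 17.6%, 18.9% and 17.5% in KO CD4SP libraries, 16.4%, 17.4% and 19.0% in WT CD4SP libraries, 14.7%, 17.7% and 15.3% in KO CD8SP libraries and 13.7%, 15.2% and 16.1% in WT CD8SP libraries. The cell types overlap in these values, while productive shares (17.4% to 18.6% in CD4SP, 4.81% to 5.17% in CD8SP) do not. The CD4SP over CD8SP log2 ratio was 0.20 (SE 0.059, edgeR adjusted p = 0.00515) in nonproductive and 1.84 (SE 0.02) in productive joins, and their difference was −1.64 (SE 0.065, edgeR adjusted p = 3.53e-54). Without near copies the nonproductive ratio was −0.00035 (edgeR adjusted p = 0.995). Near copies were 280 of 1517 TRBV31 nonproductive clonotypes in CD4SP (18.5%) and 83 of 1038 in CD8SP (8.0%). Against productive joins, TRBV31 had a log2 ratio of 1.63 in CD8SP (SE 0.055), while in CD4SP the ratio was −0.01 (edgeR adjusted p = 0.893), and its sign depends on the setting: 0.13 with TMM factors, 0.18 without TRBV22 and TRBV24, and −0.16 without near copies, all past the threshold.

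TRBV12-1, TRBV12-2, TRBV14, TRBV17 and TRBV29, which lean to CD8SP in productive joins, leaned less in nonproductive ones. TRBV13-3 had a ratio of −0.31 in nonproductive joins (edgeR adjusted p = 0.0622) and −0.14 in productive joins. TRBV12-1 held 6.83% ± 0.777 of nonproductive clonotypes in CD4SP and 7.33% ± 1.06 in CD8SP (log2 −0.10, edgeR adjusted p = 0.475), against 3.24% ± 0.159 and 8.62% ± 0.801 of productive ones (log2 −1.41). The difference was 1.33 (SE 0.095). TRBV17 gave −0.35 in nonproductive (edgeR adjusted p = 0.0521) and −1.38 in productive joins. TRBV14 kept part of its lean, with 3.06% ± 0.285 of nonproductive clonotypes in CD4SP and 4.97% ± 0.275 in CD8SP (log2 −0.71, SE 0.119, edgeR adjusted p = 2.71e-05). Near copies were 11 of 261 TRBV14 nonproductive clonotypes in CD4SP (4.21%) and 75 of 333 in CD8SP (22.5%), and without them the ratio was −0.43 (edgeR adjusted p = 0.0269). TRBV29 had a log2 ratio of −0.40 (edgeR adjusted p = 0.0297), and this was −0.03 without near copies (edgeR adjusted p = 0.995), which were 12.8% of its nonproductive clonotypes in CD4SP and 34.0% in CD8SP.

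TRBV2 had the largest log2 ratio of the 8 segments that passed between the cell types. It held 3.34% ± 0.49 of them in CD4SP and 1.5% ± 0.503 in CD8SP, with ranges of 2.71% to 4.10% and 0.874% to 2.29% that do not overlap (log2 1.15, SE 0.174, edgeR adjusted p = 1.91e-05). Near copies were 3.85% in CD4SP and 3.0% in CD8SP of its nonproductive clonotypes, and without them the ratio was 1.10 (edgeR adjusted p = 0.000506). In productive joins the ratio was 1.53 (SE 0.066), and the difference between the classes, −0.36, did not pass (SE 0.197, edgeR adjusted p = 0.112). TRBV16 (0.61), TRBV4 (0.33) and TRBV5 (0.20) were also higher and TRBV12-2 (−0.66) lower in CD4SP. TRBV16 and TRBV4 leaned the other way in productive joins (−0.78 and −0.25, both past the threshold). Without near copies 2 of 31 segments passed, TRBV2 and TRBV14. Near copies were few in TRBV16 (1 of 141 nonproductive clonotypes in CD4SP, 0 of 72 in CD8SP) and TRBV4 (9 of 685 and 2 of 427), and without them the ratios were 0.57 (edgeR adjusted p = 0.112) and 0.29 (edgeR adjusted p = 0.0788).

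**Figure D5:**
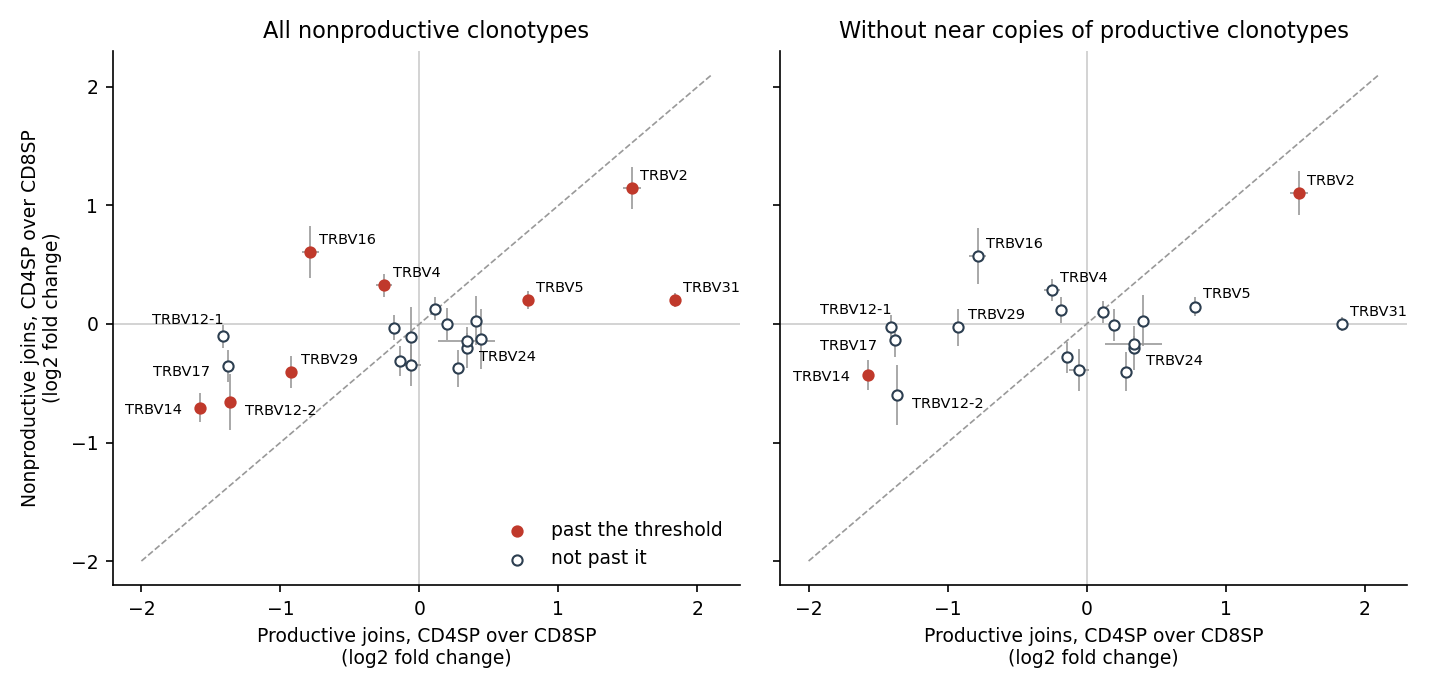
Log2 ratio of CD4SP over CD8SP shares of clonotypes for V segments (points, with SE), in productive (x axis) and nonproductive joins (y axis), with all nonproductive clonotypes (left) and without near copies (right). The dashed line marks equal ratios, red points passed the threshold in nonproductive joins, and segments tested in both kinds are shown, TRBV22 left out. TRBV31 lies at 1.84 on the x axis and near 0 on the y axis, while TRBV2 lies near the line, and 2 red points remain on the right.

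The 12 measures of nonproductive joins as a whole (shares, stop share, 3n+1 share, length, its SD, inserted and lost bases, D and TRBJ2 use, reads per clonotype) gave no call between CD4SP and CD8SP. Even the smallest exact sign-flip p that 6 mice allow, 0.031, could not pass alone after adjustment over 12 measures. The lack of calls therefore does not show that the cell types are alike. The stop share was 5.92% ± 0.824 in CD4SP and 5.98% ± 0.677 in CD8SP (exact sign-flip p = 0.875), and the mean length 41.9 ± 0.177 and 42.0 ± 0.151 bases (exact p = 0.656). Reads per nonproductive clonotype were 1.36 ± 0.0561 in CD4SP and 1.51 ± 0.0392 in CD8SP, lower in 6 of 6 mice (exact p = 0.031, adjusted 0.125). With the same number of reads drawn from every library, a setting chosen after seeing the data, reads per nonproductive clonotype were 1.31 and 1.32, higher in 3 of 6 mice (exact p = 0.562). The nonproductive share of clonotypes was then 2.88% in CD4SP and 2.14% in CD8SP, still higher in 6 of 6 mice. CD4SP libraries were made from more sorted cells, so cell number and cell type cannot be told apart in these measures.

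Between KO and WT no segment passed. In CD4SP 0 of 34 segments differed (0% of those tested; 0 at an unadjusted p under 0.05, and 0 by DESeq2), and in CD8SP 0 of 34 (0%; 1 unadjusted, 0 by DESeq2). In CD4SP the log2 ratios of KO over WT ran from −0.34 (TRBV26) to 0.37 (TRBV22), and 30 of 34 lay within 0.25 of 0. In CD8SP they ran from −0.76 (TRBV3) to 0.58 (TRBV1), and 27 of 34 lay within 0.25. The smallest p in CD4SP was that of TRBJ2-7, with 22.5% ± 0.448 of nonproductive clonotypes in KO and 24.5% ± 0.853 in WT (SD, n = 3, log2 −0.12, SE 0.065, edgeR adjusted p = 0.865). In CD8SP it was that of TRBV3, with 0.686% ± 0.0271 in KO and 1.17% ± 0.166 in WT (log2 −0.76, SE 0.37, edgeR adjusted p = 0.984). The median SE was 0.17 in CD4SP and 0.18 in CD8SP, so differences of that size could not be detected with these libraries.

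None of the 12 overall measures passed the threshold between the genotypes, though with all reads KO and WT CD8SP libraries did not overlap in the nonproductive shares. The nonproductive share of clonotypes was 3.07%, 2.79% and 2.98% in KO CD4SP libraries and 3.01%, 3.21% and 2.83% in WT CD4SP libraries, which overlap. In CD8SP it was 2.607%, 2.493% and 2.517% in KO libraries and 2.303%, 2.422% and 2.486% in WT libraries (2.54% ± 0.0602 and 2.40% ± 0.0928), so that every KO library lay above every WT library. The nonproductive share of CD8SP reads was 1.52%, 1.42% and 1.43% in KO libraries and 1.36%, 1.38% and 1.39% in WT libraries, which did not overlap either. Each of these shares was higher in 3 of 3 CD8SP pairs, with an exact sign-flip p of 0.25 and an adjusted p of 0.5. With the same number of reads drawn from every library, the nonproductive share of CD8SP clonotypes was 2.19% in KO and 2.09% in WT. The exact label permutation p was then 0.2, where groups without overlap give 0.1, so the KO and WT libraries overlapped. For the share of reads (1.45% and 1.37%) it was 0.1. The lowest adjusted p over 12 measures was 0.9 in CD4SP and 0.5 in CD8SP by the exact sign-flip test, which with 3 pairs cannot give a p under 0.25. The difference of the genotype effect between CD4SP and CD8SP passed for 0 of 34 segments (0%; edgeR, 0 unadjusted, smallest p 0.0694 for TRBV4; 0 by DESeq2).

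Nearly all nonproductive clonotypes were seen in 1 library. Of 15194 distinct ones, 15162 (99.8%) were, 8 were found in both libraries of a mouse and 24 in 2 mice, and none in more than 2 libraries. Of productive clonotypes 93.7% were found in 1 library and 5.24% in 2 or more mice. None of the 903 stop joins was shared. The 24 shared between mice were short and had few inserted bases, with a mean length of 36.4 bases and 1.42 inserted bases against 42.0 and 3.5 for those in 1 library, and 14 of the 24 were near copies. Because a larger set shares more, both kinds were also drawn down to 866 clonotypes per library: libraries of the same mouse then shared 0.0731% and those of different mice 0.0285% of nonproductive clonotypes, and 0.0597% and 0.0319% of productive ones.

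Both libraries of KO mouse 1 shared 2 joins, those of KO mouse 3 shared 3, and those of each WT mouse shared 1. The join with the most reads is given for each mouse, with capitals again marking the bases between V and J. In KO mouse 1 it was TRBV30 to TRBJ1-2 and in WT mouse 2 it was TRBV5 to TRBJ2-5, both printed above, with 3 and 2 reads and 1 and 4 reads in the CD4SP and CD8SP libraries. The join of WT mouse 3 is a near copy, and KO mouse 2 shared none.
KO mouse 3, TRBV30 to TRBJ2-7: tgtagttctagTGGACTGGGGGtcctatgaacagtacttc
WT mouse 1, TRBV5 to TRBJ2-7: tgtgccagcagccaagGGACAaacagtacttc
WT mouse 3, TRBV26 to TRBJ2-1: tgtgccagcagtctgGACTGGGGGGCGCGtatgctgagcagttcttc

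CD4SP and CD8SP libraries of the same mouse shared 0.119% ± 0.0881 of the smaller library's nonproductive clonotypes (SD, 6 pairs of libraries, 8 clonotypes), and CD4SP and CD8SP libraries of different mice 0.0472% ± 0.0721 (30 pairs, 16 clonotypes). The exact one-sided permutation test over the 720 pairings gave p = 0.0458. Productive clonotypes gave 3.51% ± 0.165 and 1.84% ± 0.125 (exact permutation p = 0.00139, the smallest that the pairings can give). The nonproductive result rests on few clonotypes and on single mice. Without a library of KO mouse 1 or KO mouse 3 the exact permutation p was 0.175, and without one of WT mouse 1 or WT mouse 3 it was 0.0833 and 0.0583. It was 0.00278 without near copies (5 clonotypes each) and 0.236 among clonotypes with at least 2 reads.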

How the data were processed

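Beta chain clonotype tables of 12 mouse thymus libraries were used. Per the labels, RNA came from FACS-sorted thymocytes, the library kit was the SMARTer one for mouse TCR a/b, and the instrument was a MiSeq. The series design text names MiXCR; its version and quality filters are not given in the sources used here, and the submitters' processing notes list mm10 as the build. The deposited counts are whole reads per clonotype, per the file headers; no molecule identifiers are given, so reads are not independent molecules. The deposited fraction equals the count over the file total and entered no result. The deposited score is the lowest CDR3 base quality and served 1 alternative (at least 30).

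Entries with the same V, J (allele dropped) and CDR3 were merged. Clonotypes per segment were tested with edgeR 4.0.16 (R 4.3.3, quasi-likelihood, library size the clonotypes of the class, filterByExpr, Benjamini-Hochberg, threshold 0.05), with the library, mouse or replicate number as block; DESeq2 1.42.0 was an alternative. Measures per library were tested by exact permutation, and the exact binomial intervals came from scipy 1.17.1. Replicate numbers were used as pairs since the design text names pairs of mice and a paired test; same-numbered KO and WT deviations correlated at 0.289, 0.204 and 0.417 in CD4SP and −0.0058, −0.0446 and −0.164 in CD8SP. P-values of the measures, and of the segment tests of CD4SP against CD8SP within a class, measure the spread between these mice. Segment tests of nonproductive against productive and of stop against frame shift joins, and of the former between cell types, blocked on library. They counted both libraries of a mouse as separate. The KO against WT segment tests blocked on replicate number and held no term for the mouse either. Positions came from RefSeq GRCm38. The segment tests were tested on simulated data.

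The joins and segment lists were chosen with earlier results of these data known. Segments were named if past the threshold, up to the 10 largest changes per direction with at least 0.5% of a class, or the 5 of smallest p where fewer than 5 passed, beside a fixed list of TRBV, TRBD and TRBJ segments. Clonotypes were named by number of libraries, by reads, and by sharing within a mouse. Alpha chain tables were not used.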

Additional observations from a re-analysis of the deposited data

Results flagged for a closer look

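The nonproductive over productive ratio differed between CD4SP and CD8SP by the interaction test of edgeR for 15 segments. As CD4SP minus CD8SP on the log2 scale, the difference was 1.40 for TRBV16, 1.33 for TRBV12-1, 1.02 for TRBV17, 0.87 for TRBV14, 0.70 for TRBV12-2, 0.58 for TRBV4 and 0.50 for TRBV29. It was 0.30 for TRBJ2-1 and 0.13 for TRBJ2-7. It was negative for TRBJ2-4 (−0.29), TRBJ1-3 (−0.33), TRBV20 (−0.56), TRBV5 (−0.58), TRBV26 (−0.66) and TRBV31 (−1.64). Adjusted p-values ran from 3.53e-54 for TRBV31 to 0.0383 for TRBJ1-3. Without near copies TRBV31 gave −1.84, TRBV14 1.15 and TRBV29 0.87. These larger values cannot be read as a stronger difference, because near copies are found through the productive clonotypes of the same segment and library.

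The share of nonproductive clonotypes with an assigned D segment moved opposite ways with genotype. KO minus WT was 1.82 points in CD4SP, higher in KO in 3 of 3 pairs, and −1.27 points in CD8SP, lower in 3 of 3 pairs. The difference between the cell types was 3.08 points, with an exact sign-flip p of 0.25, the smallest that 3 pairs allow, and an adjusted p of 0.75.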

How the results depend on the processing

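Of 5685 values of single segments and measures under another setting, 5390 kept their side of the threshold, 204 dropped below it, 74 came to pass it and 17 changed sign. Signs were compared only for results that passed in the main setting, so sign changes of the others are not counted. Stop joins numbered 903 in all, which limits what their tests can show. With only stop joins as nonproductive, 9 of 34 segments passed against productive joins in CD4SP, 7 of 34 in CD8SP and 2 of 34 for the difference between them. With reads in place of clonotypes that difference passed for 23 of 36. With at least 2 reads, 3 of 22 segments passed between CD4SP and CD8SP and 3 of 13 between stop and frame shift joins, and 0 of 8 measures between nonproductive and productive joins; without near copies the first 2 were 2 of 31 and 6 of 27. Sharing within mice differed by 0.0718 points, 0.0402 with at least 2 reads (p = 0.236, exact permutation) and 0.0701 without TRBV22 and TRBV24 (p = 0.0556). Sharing among stop joins gave no value, as none was shared. DESeq2 split the stop against frame shift calls 4 higher and 4 lower, against 3 and 7 by edgeR, and moved the median of the nonproductive over productive ratios in CD4SP by 0.11.

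Leaving out 1 library at a time gave 26 to 29 calls for nonproductive against productive joins in CD4SP and 27 to 30 in CD8SP. It gave 13 to 20 for the difference between them, 5 to 8 for nonproductive CD4SP against CD8SP and 30 to 32 for productive joins. Stop against frame shift gave 7 to 10, and 6 to 8 of the 8 measures passed between nonproductive and productive joins. Every KO against WT result and the other measures gave 0 to 0. For the measures that 0 was fixed beforehand, since the mice or pairs left cannot give an exact p under 0.05. The 5 came without a library of WT mouse 2. The sharing difference ranged from 0.0412 to 0.0998. Without the replicate block, 0 of 34 segments and 0 of 12 measures differed between KO and WT in each cell type, as with it, and the pairing by number is not borne out by the CD8SP deviations. For the measures neither count could differ from 0, as the smallest exact permutation p is 0.25 with the pairs and 0.1 without them.

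Among results that passed in the main setting, the signs that changed, on the log2 scale, were these. The cause was not tested. Nonproductive against productive in CD4SP: 0.0299 for TRBJ1-2 (at least 2 reads), and with stop joins only −0.00082 for TRBJ2-7, −0.0227 for TRBV12-1, −0.46 for TRBV19 and −0.69 for TRBV30. In CD8SP: −0.82 for TRBJ1-6, −0.66 for TRBV19 and −0.64 for TRBJ2-3 with stop joins only, and −0.0587 for TRBJ2-3 and 0.19 for TRBV12-1 with at least 2 reads. For the difference between them, stop joins only: 0.082 for TRBJ2-4, −1.52 for TRBV12-2 and −0.065 for TRBV17. Nonproductive CD4SP against CD8SP: −0.00035 for TRBV31 without near copies. Productive, by reads: 0.0371 for TRBJ1-5 and 0.038 for TRBV1. Stop against frame shift: −0.29 for TRBJ2-1 with at least 2 reads. Settings that leave out TRBV22 and TRBV24, draw equal reads, or permute genotype labels without the pairs were chosen after seeing the data.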
